A study of Mus musculus with 3 samples.

Results

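The genes described here are 10 members of the thiol and quinone defence program that the transcription factor NRF2 (gene Nfe2l2) is known to drive. They are Nfe2l2 itself, Nqo1, Hmox1, Slc7a11, Gclc, Gclm, Gsr, Txnrd1, Srxn1 and Prdx1, and the array carried 13 probes for them among 55681 gene probes and 35451 gene names. The list was drawn up when ratios of these arrays were already known, so the member values below are a description and no test was made of them. All 13 probes were well above background on all 3 arrays, and none carried an outlier flag. Members with 1 probe have no internal check.

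The study asked which transcripts differ in mouse embryonic fibroblasts (MEF) grown with n-butylidenephthalide (BP; the labels spell it n-Butylenephthalide), a compound of Angelica sinensis. MEF are primary cells from C57BL/6 embryos whose heads, legs and internal organs had been taken away, so a culture is a mixture of mesenchymal cells. All groups were MEF of this strain in the same DMEM with serum. The control group had no BP (its label reads "none", while the methods describe a DMSO control), BP10 had 10 µg/ml BP and BP40 had 40 µg/ml BP, with 1 array for each group and 3 in all. How long these cultures were in BP, and whether they came from the same embryos, is not given in the sources used here.

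In unstressed cells the adaptor KEAP1 holds NRF2 and hands it to a ubiquitin ligase, so the factor is made and quickly degraded. Electrophiles and oxidants react with cysteines of KEAP1, NRF2 then accumulates in the nucleus, pairs with a small MAF protein and binds antioxidant response elements upstream of its targets. In fibroblasts this program is known for supplying glutathione, recharging thioredoxin and peroxiredoxin, and reducing quinones before they can cycle with oxygen.

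Sequence just upstream of the annotated starts is shown first, because the element named above lies in DNA of this kind. RefSeq windows (build GRCm38.p6) of 250 bases ending at the base before the start were at hand for 7 members, in 9 windows, since Txnrd1 has 3 starts. Hmox1, Gclc and Gsr had no window. The windows of Srxn1 (chr2:152105274-152105523, plus strand), Prdx1 (chr4:116685349-116685598, plus strand), Gclm (chr3:122245307-122245556, plus strand) and Nqo1 (chr8:107403206-107403455, minus strand) follow, 5′ to 3′ on the gene's strand. They are shown because 3 of them belong to members with a ratio of at least 2-fold at BP40, and that of Prdx1 holds matches to all 3 strings searched. Capitals mark every match to TGACNNNGC, TGANTCA or TGANTCAGC on either strand.
Srxn1: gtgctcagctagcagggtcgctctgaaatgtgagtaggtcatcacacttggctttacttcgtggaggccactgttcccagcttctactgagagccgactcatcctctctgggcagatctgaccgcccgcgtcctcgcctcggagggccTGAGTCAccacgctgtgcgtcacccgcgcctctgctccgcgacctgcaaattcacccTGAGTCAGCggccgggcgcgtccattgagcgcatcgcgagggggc
Prdx1: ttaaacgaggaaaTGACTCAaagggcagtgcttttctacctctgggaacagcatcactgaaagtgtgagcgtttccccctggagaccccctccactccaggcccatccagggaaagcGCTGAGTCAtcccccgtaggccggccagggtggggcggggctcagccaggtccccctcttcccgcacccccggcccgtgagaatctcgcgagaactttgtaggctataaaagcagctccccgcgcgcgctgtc
Gclm: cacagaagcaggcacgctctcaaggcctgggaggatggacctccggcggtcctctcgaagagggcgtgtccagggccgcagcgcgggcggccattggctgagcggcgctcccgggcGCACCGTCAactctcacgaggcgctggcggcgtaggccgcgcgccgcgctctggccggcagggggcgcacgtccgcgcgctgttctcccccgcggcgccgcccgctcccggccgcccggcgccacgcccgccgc
Nqo1: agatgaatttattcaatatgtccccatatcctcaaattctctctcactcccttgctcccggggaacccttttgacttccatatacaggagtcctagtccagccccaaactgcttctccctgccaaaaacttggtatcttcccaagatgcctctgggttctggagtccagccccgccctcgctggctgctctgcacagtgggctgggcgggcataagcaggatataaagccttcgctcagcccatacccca

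The core of the antioxidant response element was searched as TGACNNNGC on both strands. It was found in 3338 of 32851 windows of the same length over the genome (10.2%) and in 4 of the 9 member windows. Gclm held it 134 to 126 bases before the start on the opposite strand, as TGACGGTGC. Prdx1 held it 133 to 125 bases before the start, also on the opposite strand, as TGACTCAGC. The others were Nfe2l2, 240 to 232 bases before the start, and 1 of the 3 windows of Txnrd1, 92 to 84 bases before the start.

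The AP-1 site, TGANTCA, which can overlap the core, was in 6.75% of all windows and in those of Srxn1 and Prdx1, at 2 places in each. A longer form, the AP-1 site followed by GC (TGANTCAGC), was chosen after the sequences were seen. It stood in 1.02% of all windows. Among the members it stood in Srxn1 at 45 to 37 bases before the start and in Prdx1 at 133 to 125 bases. The Prdx1 match, TGACTCAGC, also fits the core as searched, while the Srxn1 match, TGAGTCAGC, does not. The windows of Nqo1 and Slc7a11 held none of these strings, which says only that these letters are not in these 250 bases. Each match is a description of letters and not a binding site.

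Each array gave 59305 gene spots. The deposited intensity was taken as log2 and set relative to the 75th percentile of the array's gene spots, so a level of 0 equals that percentile, whose intensity was 1765 for control, 1431 for BP10 and 1237 for BP40. Between 68.3% and 81.7% of the spots were well above background, and none was saturated. All arrays lay on 1 slide. The scan of the control array was a session of its own, and BP10 and BP40 shared another, so for ratios against the control the effect of BP and that of the scan cannot be told apart. With 1 array per group there is no replicate spread and no p-value, and 1 array per group is what limits how precise any ratio can be. Only a spread within the arrays could be given, the SD of the log2 ratio between 2 probes of 1 gene. It was taken over 1486 genes with 2 probes above background on all arrays and with a mean level above 0. Its median was 0.20 for BP10 against control, 0.13 for BP40 against control and 0.16 between the BP arrays. It does not measure the spread between cultures or arrays. The scanner's own error estimate, which starts from a preset 10.0% of the signal, came to 0.20 for most member ratios.

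A set of spots outside the genes touched every BP40 value. The 7 bright E1A spike-in probes, which detect RNA added in known amounts, had a median log2 ratio of 0.01 for BP10 against control, 0.82 for BP40 against control (range 0.09 to 1.0) and 0.80 for BP40 against BP10. When the arrays were scaled on these probes instead, all BP40 ratios against control fell by 0.68 and all BP40 ratios against BP10 by 0.76 on the log2 scale. The members' median then went from 0.66 to -0.022 for BP40 against control, and from 0.40 to -0.36 for BP40 against BP10. The gap between that median and the median of all genes does not depend on such a shift, and was 0.79 and 0.34. Every direction given below for BP40 is therefore relative to the percentile of gene spots used as scale, unless spike-in scaling is named. With that scale the median of all genes was -0.12 for BP40 against control and 0.07 for BP40 against BP10. Among genes with a mean level above 0 these medians were 0.05 and 0.16. A small ratio above 0 thus need not exceed that of most of these genes. On the spike-in scale each BP40 ratio against control is lower by 0.68, and many turn below 0.

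At 10 µg/ml, 7 of the 10 members had a log2 ratio above 0 against the control and 3 below, with a median of 0.11 and a range of -0.42 to 0.75. None reached 2-fold. Over all genes 2.76% were higher by at least 2-fold and 10.6% lower, and the median ratio was -0.24. The 10877 genes with a mean level above 0, which include every member but Slc7a11, gave 0.570%, 1.64% and a median of -0.11. At 40 µg/ml, 8 members lay above 0 and 2 below, with a median of 0.66 and a range of -0.31 to 1.31, and 3 reached 2-fold higher (Nqo1, Srxn1 and Gclm). Here 2.70% of all genes were higher by at least 2-fold and 10.4% lower, with a median of -0.12, and 0.827% and 0.929% of the brighter genes, with a median of 0.05. For BP40 against BP10, 9 members lay above 0 with a median of 0.40, and only Srxn1 reached 2-fold, beside 1.89% of all genes higher, 2.06% lower and a median of 0.07 (1.20%, 0.496% and 0.16 among the brighter genes). Of all genes, 34.0%, 41.7% and 58.6% had a ratio above 0 in these 3 comparisons, and of the brighter genes 37.0%, 56.8% and 68.9%. No member was lower by 2-fold in any comparison with the 75th percentile as scale. Both comparisons with the control share that array, so their values are given side by side and were not correlated.

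**Figure D1:**
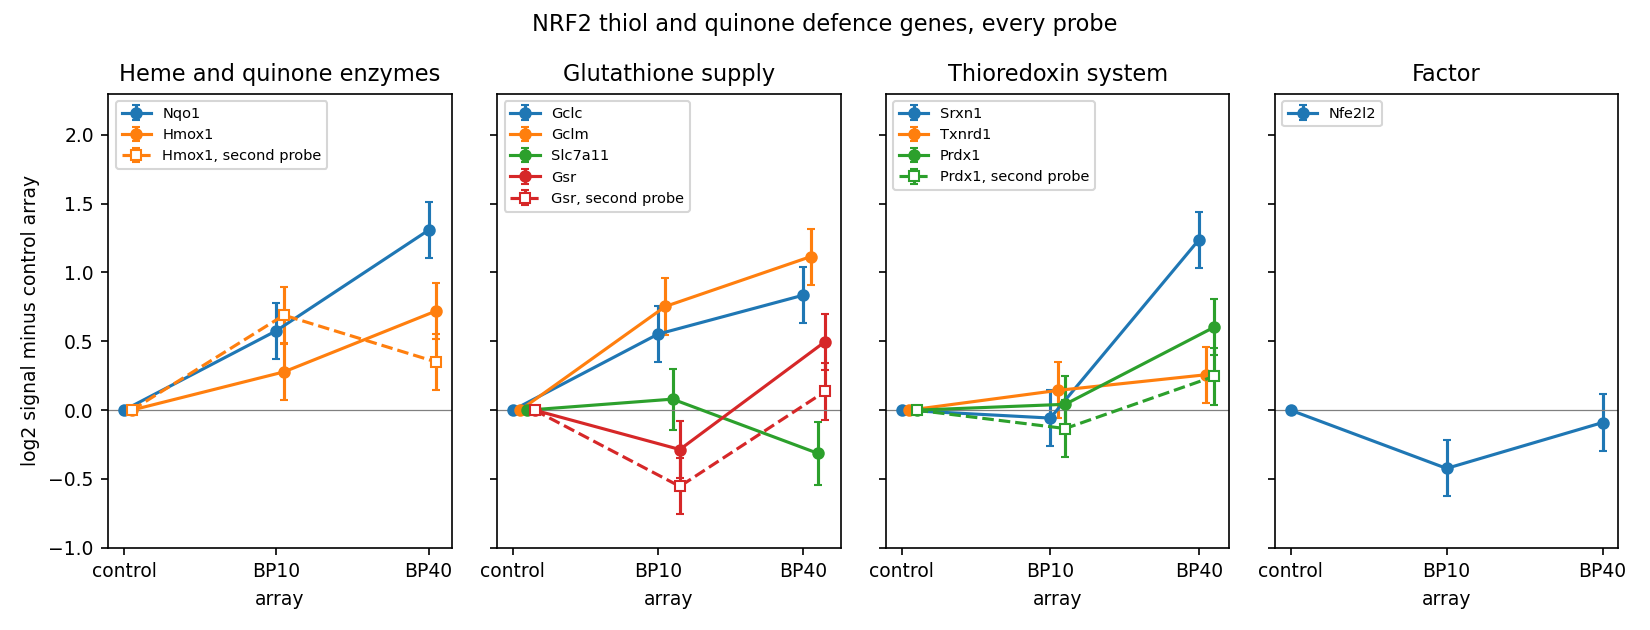
Log2 signal of every member probe minus its value on the control array (vertical axis) on the 3 arrays (horizontal axis), grouped by role. Filled circles are the probe that represents a gene, open squares the other probe, and bars the scanner's error estimate of the ratio, not a replicate error. At BP40 Nqo1, Srxn1 and Gclm stand above 1 with the 75th percentile as scale, and Slc7a11 and Nfe2l2 below 0. Under spike-in scaling the BP40 points lie lower by 0.68.

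Nqo1 encodes the quinone reductase that takes quinones to hydroquinones with both electrons at once. Its probe (mm9, chr8:109912440-109912499, minus strand) had levels of 0.07, 0.65 and 1.38 on control, BP10 and BP40, from intensities of 1852, 2239 and 3212. The levels ran upward with dose. The log2 ratio was 0.58 for BP10 against control (1.49-fold), 1.31 for BP40 against control (2.48-fold) and 0.73 for BP40 against BP10 (1.66-fold). With spike-in scaling these were 0.65, 0.62 and -0.03, so under that scale the levels at both doses were close. Over the other 6 settings the BP40 ratio against control stayed between 1.03 and 1.32. Among the 10877 genes with a mean level above 0, 28 others had a BP40 ratio against control at or above that of Nqo1 (0.257%). Among the 25035 genes above background on all 3 arrays it was 270 (1.08%). The share among the 10877 genes was 25.6% for Txnrd1 and 67.2% for Nfe2l2. Such ranks describe members chosen with the ratios known and are no test.

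Hmox1 encodes heme oxygenase-1, which opens heme to biliverdin, iron and carbon monoxide. Its brighter probe (mm9, chr8:77624207-77624266) had levels of 3.68, 3.96 and 4.40 on control, BP10 and BP40, and log2 ratios of 0.28 and 0.72 against the control. The other probe (mm9, chr8:77620797-77620856) had levels of -0.10, 0.59 and 0.25, and ratios of 0.69 and 0.35. Both probes were higher on the BP arrays than on the control array, but they ordered the doses differently, with BP40 against BP10 at 0.44 for the brighter and -0.34 for the other. With spike-in scaling the brighter probe stood at 0.35 for BP10 and 0.04 for BP40 against control. Neither probe reached 2-fold.

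Glutathione is made from cystine-derived cysteine, glutamate and glycine, and the ligase that joins cysteine and glutamate, of the subunits GCLC and GCLM, sets the pace. Gclc, the catalytic subunit (mm9, chr9:77641296-77641355), had levels of 1.76, 2.32 and 2.60, and log2 ratios of 0.55 and 0.84 (1.78-fold) against the control. Gclm, the modifier subunit (mm9, a probe across chr3:121962174-121964809), had levels of -0.28, 0.48 and 0.84, and ratios of 0.75 (1.69-fold) and 1.11 (2.17-fold). In both subunits the larger part of the difference was already there at 10 µg/ml, and the ratio of BP40 against BP10 was 0.28 for Gclc and 0.36 for Gclm. With spike-in scaling the BP10 ratios against control were 0.63 and 0.83 and the BP40 ratios 0.15 and 0.43, so under that scale both subunits stood higher at BP10 than at BP40. Gclm lay just inside the 2-fold threshold at BP40 and Gclc just outside.

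Slc7a11, the cystine importer (mm9, chr3:50169700-50169759, minus strand), was the dimmest member and had intensities of 224, 192 and 126. Its levels were -2.98, -2.90 and -3.29, and its log2 ratios 0.08 for BP10 and -0.31 for BP40 against control. The sign at BP40 was not stable, since the other 6 settings gave -0.38 to 0.07 and spike-in scaling gave -1.0. It was the only member with its highest level on the BP10 array.

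Gsr, glutathione reductase, which returns oxidized glutathione to the reduced form with NADPH, was measured by neighbouring probes. The brighter (mm9, chr8:34808488-34808547) had levels of 2.50, 2.21 and 3.0, and the other (mm9, chr8:34808413-34808472) 1.76, 1.20 and 1.89. On both probes the BP10 array was the lowest. Against control the ratios were -0.29 and 0.50 on the brighter probe and -0.55 and 0.14 on the other, while BP40 against BP10 was 0.78 and 0.69. With spike-in scaling the brighter probe gave -0.19 for BP40 against control and 0.02 for BP40 against BP10.

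Srxn1 encodes sulfiredoxin, which repairs peroxiredoxin whose active cysteine has been over-oxidized. Its probe (mm9, chr2:151937009-151937068) had levels of 3.82 on control, 3.77 on BP10 and 5.06 on BP40, from intensities of 25001, 19482 and 41332. The control and BP10 arrays were close together and the BP40 array stood apart. The log2 ratio was -0.06 for BP10 against control, 1.24 for BP40 against control (2.36-fold) and 1.30 for BP40 against BP10 (2.45-fold). The difference at 10 µg/ml was smaller than the spread between probes and took either sign, from -0.06 to 0.08 over the alternatives. Spike-in scaling left 0.56 and 0.54 for BP40 against control and against BP10. Srxn1 was thus the member with the highest ratio between the BP arrays, which were scanned together. There 56 other genes of 10877 stood at or above it (0.515%), and 196 of the 25035 above background on all arrays (0.783%). This rank too is a description and no test.

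Txnrd1 and Prdx1 act beside it. Txnrd1, the cytosolic selenoenzyme that reduces thioredoxin with NADPH (mm9, chr10:82360230-82360289), had levels of 4.70, 4.84 and 4.96 and ratios of 0.14 and 0.26 against the control. These were of the size of the scanner's error estimate, and with spike-in scaling the BP40 ratio was -0.43. Prdx1, a peroxidase that reduces hydrogen peroxide through its cysteine, had levels of 6.13, 6.18 and 6.74 on its brighter probe (mm9, chr4:116371818-116371877) and 2.20, 2.06 and 2.44 on the other (mm9, chr4:116372422-116372481). The BP40 array was the highest on both. The ratios for BP40 against control were 0.60 and 0.24, and those for BP10 0.04 and -0.13, while spike-in scaling took the brighter probe at BP40 to -0.08.

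The transcript of the factor itself was not higher with BP than in the control. The probe of Nfe2l2 (mm9, chr2:75513771-75513830, minus strand) had levels of 3.95, 3.53 and 3.86, from intensities of 27302, 16511 and 17979. The log2 ratio was -0.42 for BP10 and -0.09 for BP40 against control, and -0.77 for BP40 with spike-in scaling. It was below 0 in both comparisons under all 7 alternatives, among them the series table, which repeats the main values. NRF2 is known to be controlled mainly as a protein, which these arrays do not measure.

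Set by dose, the members fell into 3 shapes with the 75th percentile as scale. Nqo1, Gclc and Gclm had log2 ratios of at least 0.5 against the control at both doses. Hmox1, Srxn1 and Prdx1 had such a ratio at BP40 only, with Gsr just under at 0.50 as rounded. Slc7a11, Txnrd1 and Nfe2l2 had it at neither. These shapes rest on 1 probe per gene. The other Hmox1 probe had 0.69 at BP10 and 0.35 at BP40, and so reached 0.5 at BP10 only. The other Prdx1 probe had -0.13 and 0.24 and reached it at neither dose. In 6 members the levels ran control, BP10, BP40 from low to high, and 8 members had their highest level on the BP40 array. The share of all genes with these orders is not given here, so these counts describe the members only. These shapes were read from the ratios themselves and depend on the scale, because spike-in scaling left only Nqo1 and Srxn1 above 0.5 at BP40.

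**Figure D2:**
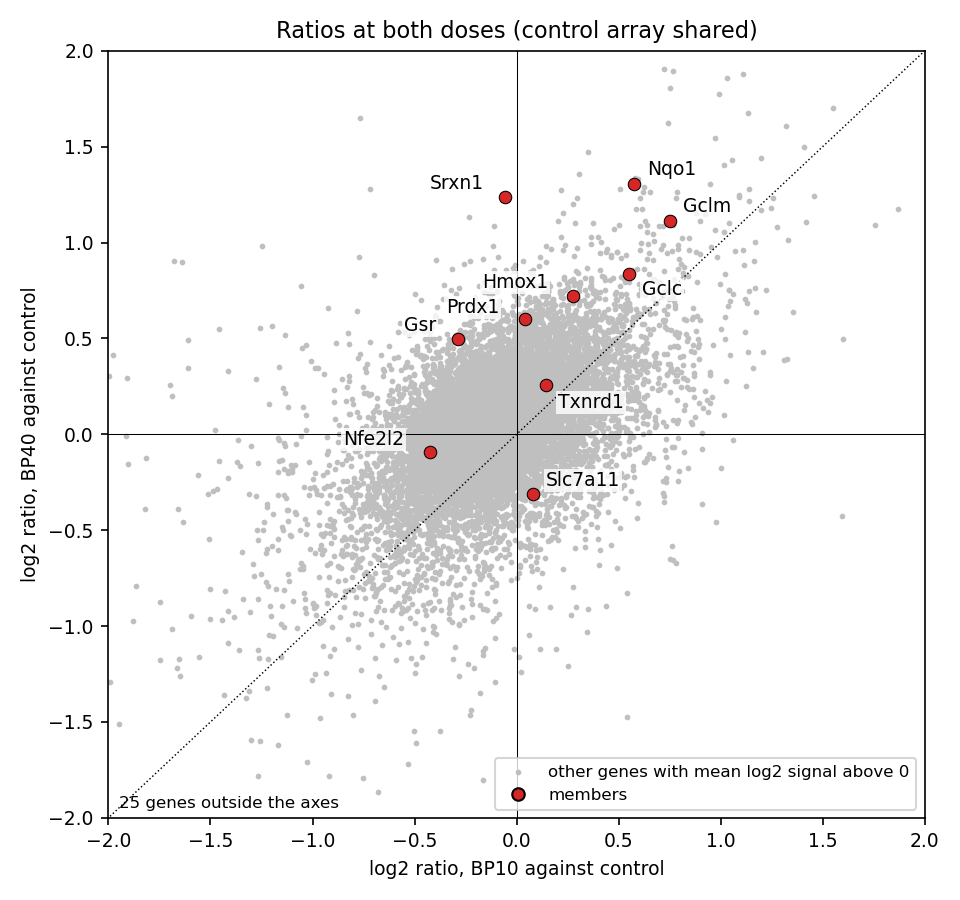
Log2 ratio of BP10 (horizontal axis) and BP40 (vertical axis) against the shared control array, for the 10 members (red) and the other genes with a mean level above 0 (grey), with the 75th percentile as scale. 25 genes lie outside the axes, and the dotted line marks equal ratios at both doses. Srxn1 stands at -0.06 and 1.24, and Nqo1, Gclm and Gclc stand to the right. Spike-in scaling would move all points down by 0.68.

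Of the genes whose pair of ratios was nearest to that of Nqo1 (Euclidean distance over 10876 genes on 3 arrays), the first 5 were LOC100038935 and Gm2891 (distance 0.03 each), Gm2006 (0.05), a transcript region that the array names only by its position (0.06) and LOC270362 (0.08). No other member was among them. Gclm was the nearest member, at place 21, followed by Gclc at 81, Srxn1 at 193 and Hmox1 at 210, and Nfe2l2 was at 8365.

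**Figure D3:**
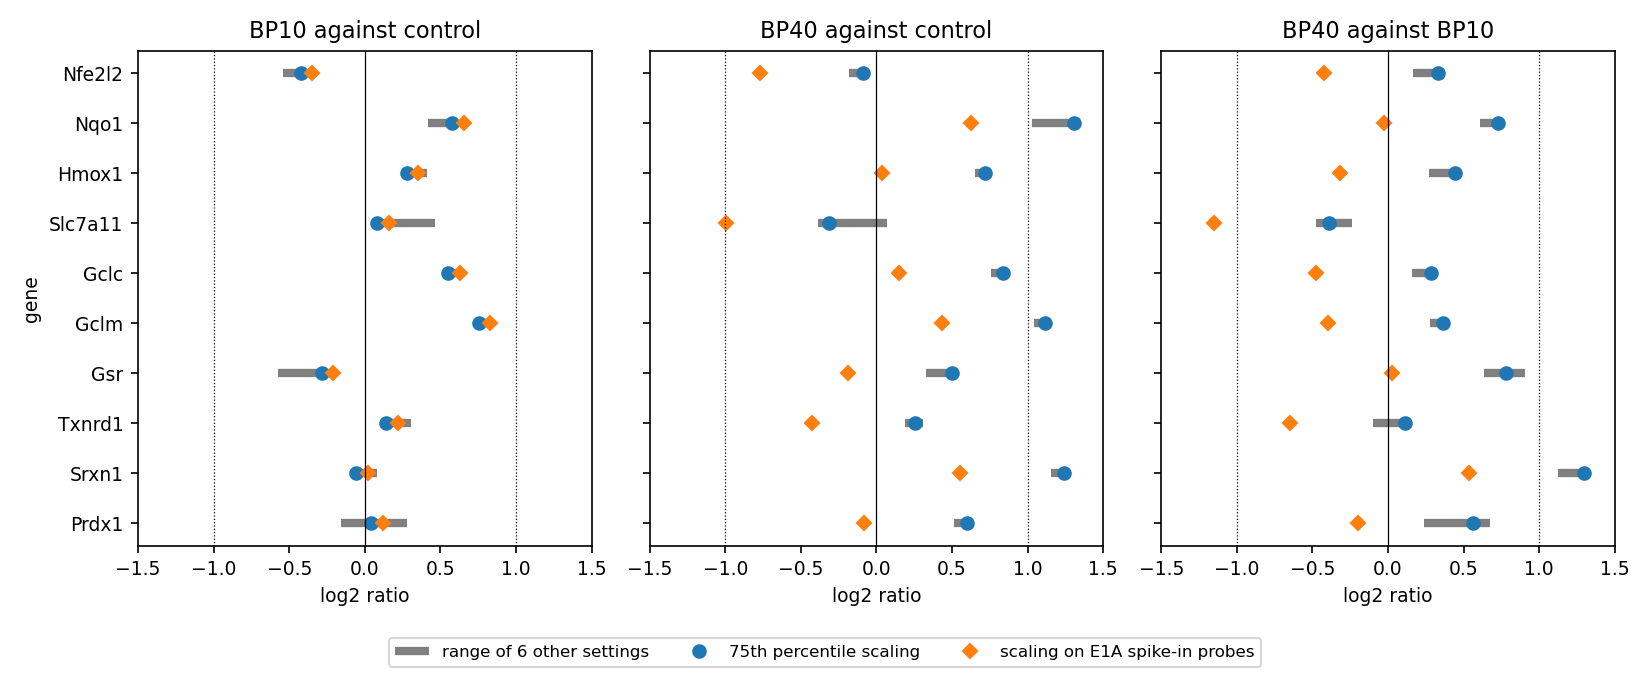
Log2 ratio of each member in the 3 comparisons (horizontal axis) with the 75th percentile as scale (blue), on the E1A spike-in probes (orange), and over the other 6 settings (grey bar). Dotted lines mark 2-fold. At BP40 against control Nqo1, Srxn1 and Gclm pass 2-fold in blue and under every grey setting, and none passes in orange.

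The program's other 89 genes, in 7 lists, were called as follows. At BP10 against control 1 was higher and 1 lower (1.12% each, beside 2.76% and 10.6% of all genes). At BP40 against control 5 were higher (5.62%, beside 2.70%) and 1 lower (1.12%, beside 10.4%). For BP40 against BP10, 5 were higher (5.62%, beside 1.89%) and none lower (beside 2.06%). Their medians were -0.09, 0.08 and 0.24, beside -0.24, -0.12 and 0.07 over all genes. All genes include many dim ones, whereas 87 of the 89 were above background on all 3 arrays. Of the genes with a mean level above 0, 0.570%, 0.827% and 1.20% were higher and 1.64%, 0.929% and 0.496% lower. The medians of those genes were -0.11, 0.05 and 0.16. The program's shares of lower genes and its medians lay near these. Spike-in scaling left 1 higher and 8 lower at BP40 against control (8.99% lower, beside 32.2% of all genes), and none higher and 13 lower for BP40 against BP10 (14.6%, beside 16.4%).

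The conjugating and carbonyl-reducing enzymes, 15 genes, held 4 of the 5 that rose at BP40, and their median was 0.37 against control (-0.31 with spike-in scaling) and -0.09 at BP10. Gsta4, a glutathione transferase for the lipid peroxidation product 4-hydroxynonenal, had levels of -0.77, 0.09 and 1.33 on control, BP10 and BP40, and ratios of 0.86 and 2.09 against the control. It was higher on each BP array and kept 1.41 at BP40 with spike-in scaling. Gsta1 and Gsta2, transferases of the same class, had BP40 ratios of 1.19 and 1.60 (0.50 and 0.92 with spike-in scaling) and BP10 ratios of -0.16 and -0.09. Gsta1 had 0.98 to 1.52 at BP40 over the 6 settings other than spike-in scaling. Both probes were dim, and since the genes are near-identical copies their probes may detect each other's transcript. Gstm1, of the mu class, had 0.50 and 1.09 on its brighter probe (0.41 at BP40 with spike-in scaling) and 0.24 and 0.48 on the other. Of these 4 enzymes only Gsta4 was above 2-fold at BP40 on the spike-in scale. Mgst2, a microsomal transferase, did not reach 2-fold against the control (-0.65 and 0.69) and rose by 1.34 from BP10 to BP40, but spike-in scaling gave 0.0088 at BP40 against control and 0.58 for BP40 against BP10, under 2-fold.

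The quinone, heme and iron genes, 10 in number, had 9 ratios above 0 at BP40 against control and 2 at BP10. Of all genes, 41.7% lay above 0 at BP40 and 34.0% at BP10. Of the genes with a mean level above 0, to which most of this list belongs, 56.8% and 37.0% did. The list's medians were 0.30 (-0.38 with spike-in scaling) and -0.14. None of the 10 genes reached 2-fold. Blvrb, biliverdin reductase B, had the highest BP40 ratio, 0.87 (BP10 -0.02), and Slc48a1, a heme transporter, had 0.67 (BP10 -0.21). Fth1, the ferritin heavy chain that stores iron, had 0.18 and 0.66. At BP40 spike-in scaling gave 0.19 for Blvrb, -0.011 for Slc48a1 and -0.028 for Fth1.

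NADPH feeds the reductases described above. Of the 8 genes of NADPH supply, Pgd, phosphogluconate dehydrogenase of the pentose phosphate pathway, rose at BP40, with levels of 4.14, 4.36 and 5.17 and ratios of 0.22 and 1.03 (0.34 at BP40 with spike-in scaling). Over the other 6 settings the BP40 ratio was 0.54 to 1.04, so it was under 2-fold in some. Idh1, cytosolic isocitrate dehydrogenase, lay the other way at -0.69 and -0.92. The list's medians were -0.22 at BP10 and 0.11 at BP40 (-0.58 with spike-in scaling).

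The glutathione and thioredoxin lists, closest to the members in name, held no gene at 2-fold. Among the 19 other genes of the glutathione cycle the medians were -0.03 and -0.12 (-0.80 at BP40 with spike-in scaling). Abcc4, an exporter of glutathione conjugates, had the highest BP40 ratio at 0.61, and Gss, glutathione synthetase, had 0.68 and 0.43. At BP40 spike-in scaling turned both below 0, to -0.069 for Abcc4 and -0.26 for Gss. Among the 17 other thioredoxin and peroxiredoxin genes they were -0.16 and 0.02 (-0.67 at BP40 with spike-in scaling). Txnrd2, the mitochondrial thioredoxin reductase, had the highest BP40 ratio at 0.53 (-0.16 with spike-in scaling), but its other probe gave -0.76.

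Of the 14 regulators and partners of NRF2, Sqstm1, the adaptor p62 that sequesters KEAP1 and is itself a target, rose at BP10 and had levels of 1.40, 2.54 and 1.83. Its ratios were 1.13 and 0.43, and -0.71 for BP40 against BP10, and over the other 6 settings its BP10 ratio was 0.75 to 1.20. Spike-in scaling gave -0.25 for Sqstm1 at BP40. Keap1 itself had 0.03 and 0.01, and Bach1, the repressor of Hmox1, had -0.35 and -0.11. The list's medians were 0.06 and 0.09 (-0.60 at BP40 with spike-in scaling).

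Among the 6 superoxide and peroxide enzymes, Sod3, the extracellular superoxide dismutase, fell at both doses. Its levels were 2.72, 0.54 and 1.69, and its ratios -2.18 and -1.03 against control and 1.15 for BP40 against BP10. The BP10 array was the lowest of the 3. With spike-in scaling Sod3 had -2.10 and -1.72 against the control, and at BP40 -1.10 to -0.96 over the other settings. The list's medians were -0.08 and 0.09 (-0.59 at BP40 with spike-in scaling).

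**Figure D4:**
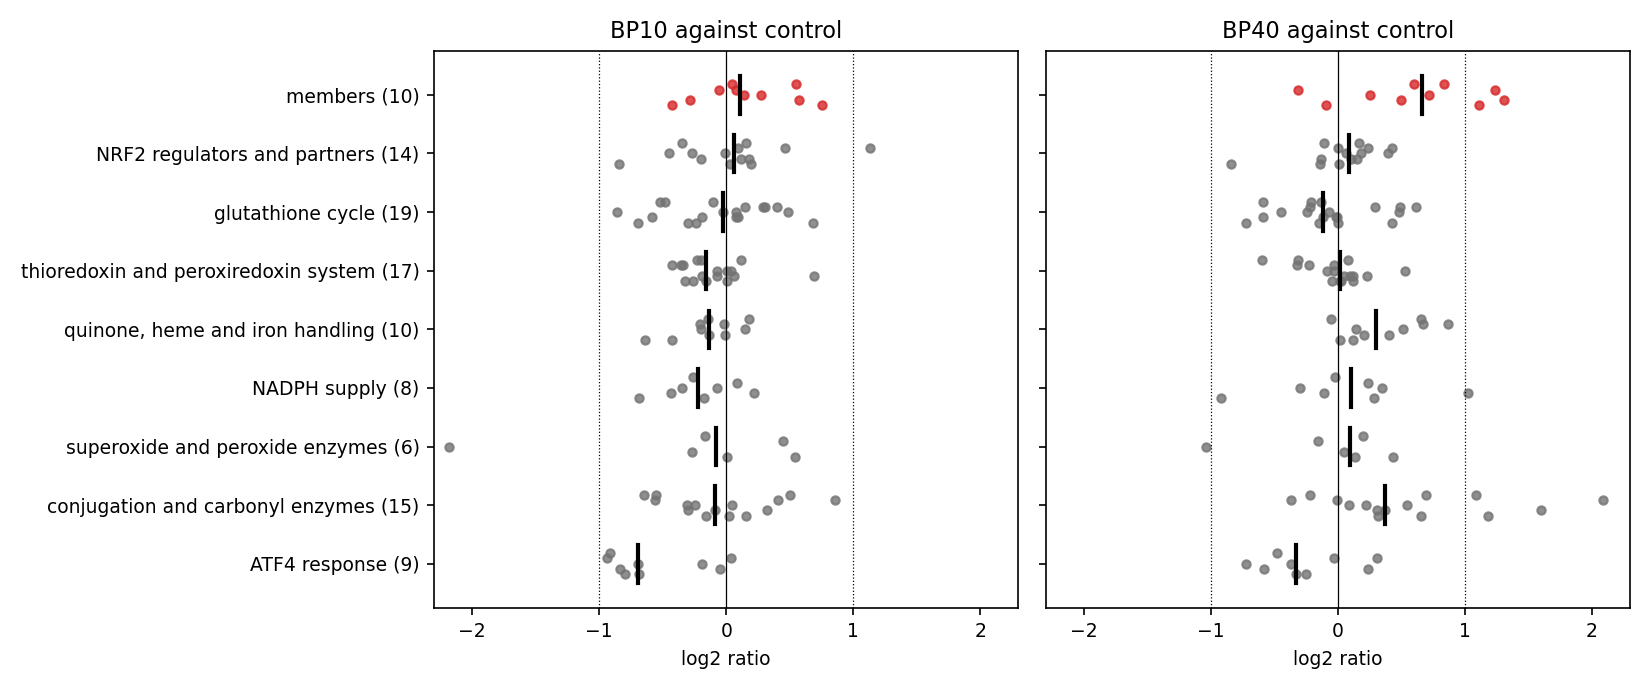
Log2 ratio against control (horizontal axis) at BP10 (left) and BP40 (right) of each gene of the members (red) and of the 7 other lists of the program and the ATF4 list (grey), with the number of genes in parentheses, the median as a black bar and 2-fold as dotted lines. The members' median moves from 0.11 to 0.66 and that of the conjugating enzymes from -0.09 to 0.37, with the 75th percentile as scale. Spike-in scaling takes those at BP40 to -0.022 and -0.31.

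Slc7a11 and Chac1 are also known targets of ATF4, the factor of amino acid stress. The 9 genes of that list had a median of -0.69 at BP10 and -0.33 at BP40 (-1.01 with spike-in scaling). Atf4 had -0.69 and -0.33 on its brighter probe and 0.24 and 0.04 on the other, Asns -0.80 and -0.25, and Chac1, which degrades glutathione and is also in the glutathione list, -0.69 and -0.72. Ddit4 had the highest BP40 ratio, 0.31 (-0.37 with spike-in scaling), with -0.94 at BP10, and rose by 1.26 from BP10 to BP40 (0.50 with spike-in scaling).

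Markers of cell types were checked beside these values. All 10 fibroblast markers were above background on every array, and their summed signal was 1451, 1052 and 1147 times the array's 75th percentile on control, BP10 and BP40, with median ratios of -0.60 and -0.55. In bulk RNA, fewer cells of a type and less RNA per cell cannot be told apart. All 9 macrophage markers were above background too, with sums of 33.7, 26.6 and 30.0 and median ratios of -0.43 and -0.19, although Lyz2 had 1.09 and 1.25. The brightest macrophage marker, Itgam, had -0.45 and -0.43. At BP40, 3 of the 9 lay above 0, among them Csf1r (0.29) and Cd68 (0.24). Macrophages also express Hmox1 strongly. Of the endothelial markers 3 of 5 were above background on each array, with sums of 8.23, 6.49 and 8.42, and Cdh5 and Tie1 on none. Of the epithelial markers 3 of 5 were, with sums of 2.40, 2.65 and 1.75, and Epcam and Cdh1 on none. Of the erythroid markers 5 of 6 were matched on the array, 2 or 3 were above background, with sums of 0.332, 0.328 and 0.346, and Alas2 on none. The part of other cells in the member ratios was not tested.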

How the data were processed

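Total RNA of MEF without BP and with 10 or 40 µg/ml BP was labelled with Cy3 and hybridized to Agilent mouse arrays, 1 array per group. The files the authors deposited are scanner output, in which Feature Extraction 10.5.1.1 had subtracted background and spatial trend from the intensity of each spot. No scaling from array to array had been applied, and the series table repeats these intensity values. Probe positions are those of the scanner files (mm9), and annotation of exons and UTRs on that build was not used here. Log2 intensity was set relative to each array's 75th percentile over gene spots, control spots were left out, and spots of 1 probe were averaged. RefSeq symbols named 26425 probes (47.5%), the scanner file the rest. The probe detected above background on most arrays stood for its gene, and the brightest of those. A gene was called at 2-fold if either array of the comparison had its probe above background, and where the other had not, against the lowest signal well above background. The 10 members, the lists and the rule for named genes were chosen with earlier results of these data known. The rule took all members, list genes called at both doses or with the highest BP40 ratio, and the 5 genes most like Nqo1. Other list genes and markers were named after their values were seen. Alternatives were quantile normalization, scaling on probes above background, without outlier spots or on spike-in probes, normexp with offset 50, removal of the brightness trend, other filters and thresholds, the median of all probes and the series table. Python 3.11.15, numpy 2.4.6, pandas 2.3.3, R 4.3.3 and limma 3.58.1 were used. The calling step was also run on simulated data in which 200 of the 35451 genes were changed. Their noise was set in advance to an SD of 0.2, near the spread between probes within the arrays. Of the 200, it found 198 for BP10 against control, 194 for BP40 against control and 195 for BP40 against BP10. Unchanged genes called numbered 6, 17 and 8. The measured log2 ratios of all genes had larger SDs, 0.855, 0.842 and 0.679. These counts depend on the chosen noise. They do not show how reliable calls from 1 array per group are, since the spread between cultures was not measured.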

Additional observations from a re-analysis of the deposited data

Results flagged for a closer look

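The spike-in probes gave a signal in data outside the genes. The median log2 ratio of the 7 bright E1A probes was 0.82 for BP40 against control, above their level on the control array, whereas it was 0.01 for BP10 against control. Its source was not tested.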

How the results depend on the processing

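Of 132 counts and medians recomputed under an alternative, 103 stayed close, 27 moved and 2 reversed. Those 2 were the members' medians on the spike-in scale, -0.022 for BP40 against control and -0.36 for BP40 against BP10. The series table repeats the scanner values, so its part of the 103 was fixed in advance. The 75th percentile over probes above background or without outlier spots only shifted all ratios of a comparison by a constant, at most 0.08. The spike-in scale also left 0 members higher by 2-fold in both comparisons, and Slc7a11 lower for BP40 against BP10 (-1.15). Of the 89 other program genes, 1 was higher and 8 lower at BP40 against control. For BP40 against BP10, 0 were higher and 13 lower. This scale lowered the median of all genes by the same shift, which is its construction. The members' median at BP10 was 0.32 with quantile normalization and 0.36 with the brightness trend removed, and at BP40 against control 0.48 with the median of all probes. Normexp left 0 other program genes higher at BP10, beside 1.29% of all genes. At BP40 it left 3 higher and 0 lower, beside 1.36% and 1.73%. The cause was not tested. At 1.5-fold, 1 member was higher at BP10 (Gclm), 6 at BP40 (Nqo1, Hmox1, Gclc, Gclm, Srxn1 and Prdx1) and 3 for BP40 against BP10 (Nqo1, Gsr and Srxn1), and at 3-fold 0 at BP40 and 0 for BP40 against BP10. Of the other program genes, 1.5-fold gave 4 higher and 5 lower at BP10, and 11 and 6 at BP40. For BP40 against BP10 it gave 13 and 4. At 3-fold, 0 of them were higher at BP10, 2 higher and 0 lower at BP40, and 1 higher for BP40 against BP10. Of all genes, 1.5-fold gave 6.59% higher and 22.2% lower at BP10, 6.75% and 21.8% at BP40, and 7.92% and 6.07% for BP40 against BP10. The other program genes had 4.49% and 5.62%, 12.4% and 6.74%, and 14.6% and 4.49%. At 3-fold, 1.02%, 0.922% and 0.511% of all genes were higher in the 3 comparisons, and 1.97%, 2.15% and 0.739% lower.

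Higher genes made up 20.7%, 20.5% and 47.9% of all calls in the comparisons of BP10 with control, of BP40 with control and of BP40 with BP10. These were 50.3%, 51.6% and 45.4% with quantile normalization, 31.4%, 44.0% and 55.3% with normexp, 66.7%, 57.3% and 41.0% with the trend removed, and 26.2%, 2.33% and 2.17% on the spike-in scale. The median of all genes moved from -0.24 and -0.12 against control to -0.05 and -0.01 with quantile normalization, -0.09 and 0.06 with normexp, and -0.02 and -0.01 with the trend removed. Of 70 member ratios per comparison, 65, 55 and 50 moved by less than the median spread between probes. These include the ratios of the series table, which could not move, and those under a small constant shift. No paired analysis was possible because each group had 1 array. For the same reason no array could be left out. The background correction moved both bright and dim members: with normexp Nqo1 at BP40 against control was 1.03 and Slc7a11 -0.067.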
